A study of Homo sapiens with 4 samples.

Results

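The genes described here are 9 classical targets of the transcription factor NRF2: NQO1, HMOX1, GCLM, GCLC, TXNRD1, SRXN1, AKR1C1, AKR1C2 and AKR1B10. They were taken by symbol as known targets, with no threshold on a measured value, though earlier results of these data were known, and all 9 were found among the 20510 genes of the expression table. The samples were 4 RNA libraries of K1, an established human cell line from papillary thyroid carcinoma, grown in RPMI medium with fetal bovine serum. A control hairpin was carried by 2 of the libraries (shCtrl, genotype given as Ctrl) and a short hairpin RNA that targets TBX3 by the other 2 (shTBX3, genotype given as TBX3 knockdown). All 4 share the parental line, and no other allele or agent is named. The sources used here do not give the hairpin sequences, the time after delivery, or whether the cells were a clone or a pool.

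NRF2, encoded by NFE2L2, is the main activator of the cellular defence against oxidants and electrophiles. In resting cells the adaptor KEAP1 presents it to a CUL3 ubiquitin ligase and it is degraded. Oxidants and electrophiles modify KEAP1, NRF2 accumulates, pairs with a small MAF protein and binds antioxidant response elements near genes for quinone reduction, glutathione synthesis, thiol reduction and aldehyde reduction. BACH1 competes for the same elements as a repressor, with HMOX1 as its best known target. In carcinoma cells these genes are widely used as a readout of NRF2 activity.

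The core of the antioxidant response element, TGACNNNGC, was looked for on both strands in RefSeq promoter windows (GRCh38.p14 table, 250 bases before to 50 after a start site). Windows were held for 7 of the 9 genes, not for HMOX1 and AKR1B10, and TXNRD1 had 2 windows. Sequence beyond the windows was not searched. The core was present in 3 of these 8 windows, against 13.3% of all 35116 windows, and the genes concerned were GCLM and TXNRD1. By gene, 2 of 7 held it (28.6%), near the 28.4% of genes with a window in the wider lists described below. The stretches below are shown because they hold these matches in the upstream region of the start site, with the match in capitals and written 5' to 3' on the strand of the gene. By exact match to GRCh37 they lie at chr1:94374982-94375050 (minus strand) for GCLM, chr12:104609428-104609496 for the upstream TXNRD1 start and chr12:104680678-104680746 for the downstream TXNRD1 start (both plus strand).
GCLM: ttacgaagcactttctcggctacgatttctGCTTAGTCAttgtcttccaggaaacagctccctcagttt
TXNRD1 upstream start: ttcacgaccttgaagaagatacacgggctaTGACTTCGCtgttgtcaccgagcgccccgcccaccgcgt
TXNRD1 downstream start: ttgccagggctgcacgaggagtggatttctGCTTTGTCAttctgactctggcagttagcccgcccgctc
In GCLM and at the downstream TXNRD1 start the core stands on the opposite strand, as its reverse complement. The upstream TXNRD1 window holds another match, first base 8 bases before the start site. A match describes these letters only, and the table of expression says nothing of binding.

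Values are FPKM, fragments scaled to transcript length and library total, as the authors deposited them. From the whole steps in the values of short microRNA genes, an FPKM of 1 stood for between 8.36 and 8.76 fragments per kilobase, taking the smallest step as 1 fragment. TBX3 itself was at 48.94 and 54.77 under shCtrl against 27.81 and 36.99 under shTBX3, so that the targeted transcript was at 0.625 of the control mean, with an adjusted p of 0.428 in limma's test over all genes. The thyroid follicular markers TG, TSHR, NKX2-1 and FOXE1 were below 0.5 in every library, PAX8, SLC5A5 and HHEX were between 1.20 and 3.28, and the list of 8 such markers summed to between 7.15 and 7.85. Of 10 intestinal epithelial markers, 5 were at 1 or above in every library, with sums of 207.64 to 261.81 in shCtrl and 198.09 to 208.71 in shTBX3. CDX2, between 116.78 and 147.75, made up most of these sums. PHGR1 was at 12.43 and 13.45 under shCtrl but 0.83 and 1.09 under shTBX3 (limma adjusted p = 0.00779). LGALS4 was at 4.33 and 5.59 but 1.31 and 1.39 (adjusted p = 0.102). CDH17 was at 35.76 and 45.08 against 34.09 and 32.61 (adjusted p = 0.867), while CDX2 and VIL1 (8.86 to 12.12) overlapped between the groups. KRT20, at 18.30 and 36.21 against 35.86 and 29.79, also overlapped and had the higher mean under shTBX3. CDX1, FABP1, GPA33 and MUC2 were at most 0.58 in any library. The epithelial markers EPCAM, CDH1, KRT8, KRT18 and KRT19 summed to between 6728.78 and 7198.60. Fibroblast and endothelial markers summed to at most 2.90 and 1.21, and the 4 immune markers in the table to between 22.98 and 24.68. Of these 4, LYZ, also made by epithelia, was the highest. CD68 was between 5.30 and 8.24, PTPRC between 1.14 and 1.69, and CD14 at most 0.29. The part of these markers in the NRF2 target values was not tested. Group comparisons below use limma on log2(FPKM + 1) over the 13924 genes that reached an FPKM of 1 in 2 or more libraries, with Benjamini-Hochberg adjustment. In bulk RNA, fewer cells with a transcript and less of it per cell cannot be told apart.

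None of the 8 NRF2 targets that could be tested passed limma's adjusted p of 0.05 in either direction, where 0.180% of all genes tested did, and none had an unadjusted p under 0.05, where 6.67% of all genes did, a share under which a count of 0 among 8 says little. The adjusted p-values of the 8 lay between 0.925 and 0.991. AKR1C2 reached an FPKM of 1 in a single library and was not tested. The log2 fold changes (shTBX3 minus shCtrl) ran from −0.27 for AKR1B10 to 0.23 for SRXN1, with a median of −0.10, against −0.01 over all genes tested. Of the 8, 2 were positive and 6 negative. This balance rested on single libraries: without shCtrl replicate 1, 5 of the 8 were positive and the median was 0.05, and without shTBX3 replicate 1, 1 of the 8 was positive. The 95% interval of every one of the 8 log2 fold changes lay inside −1 to 1, so each excluded a 2-fold change on the log2(FPKM + 1) scale, as did the intervals of 12752 of the 13924 genes tested. This scale understates changes in the 2 low genes among them, AKR1C1 and AKR1B10. These are intervals for single genes, not adjusted for their number, and they rest on 2 libraries per group. The labels name no separate cultures, so p-values and intervals cover the spread of these 4 libraries alone, and that spread may be technical.

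**Figure D1:**
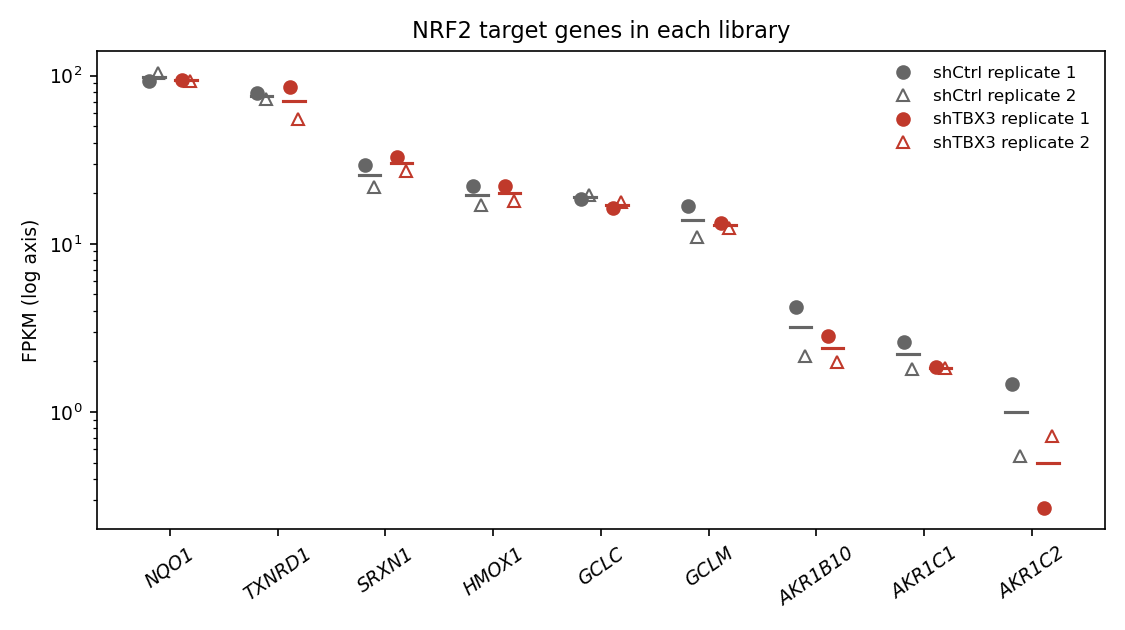
FPKM (log axis) of the 9 NRF2 target genes in order of mean level; grey, shCtrl; red, shTBX3; filled circles, replicate 1; open triangles, replicate 2; bars, group means. NQO1 lies between 92.36 and 104.41 in all 4 libraries, and AKR1C2 between 0.27 and 1.46.

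The 9 genes spanned a wide range of levels. NQO1 was the highest, with a mean of 96.1 over the 4 libraries that exceeded 96.5% of all genes in the table. TXNRD1 (72.8) came next, and their values did not overlap. SRXN1 (27.9), HMOX1 (19.7), GCLC (18.0) and GCLM (13.4) formed a middle tier. SRXN1 and HMOX1 overlapped, as did HMOX1 and GCLC, and GCLC and GCLM overlapped at 16.31 and 16.68. AKR1B10 (2.78), AKR1C1 (2.02) and AKR1C2 (0.750) were at or below the 45.6th percentile of the table, and AKR1B10 overlapped AKR1C1, which did not overlap AKR1C2. FPKM is scaled by transcript length, which allows this order between genes. The order of AKR1C1 and AKR1C2 is an exception, since it rests on how the quantifier split reads between nearly identical sequences.

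NQO1 encodes the cytosolic enzyme that reduces quinones to hydroquinones in a 2-electron step, and lies on chromosome 16 (69740899 to 69760571, minus strand, GRCh37, as are all gene positions here). Its FPKM was 92.36 and 104.41 under shCtrl against 94.34 and 93.43 under shTBX3. Both shTBX3 values fell between the shCtrl values. Means were 98.4 ± 8.52 and 93.9 ± 0.643 (SD, n = 2 each), with a log2 fold change of −0.06 ± 0.12 (SE) and a 95% interval of −0.37 to 0.24. It had the narrowest interval of the 8 genes, with at least 776 fragments per kilobase behind every value.

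HMOX1 encodes heme oxygenase 1, which opens heme to biliverdin, iron and carbon monoxide, and lies on chromosome 22 (35776354 to 35790207, plus strand). Its FPKM was 21.97 and 16.99 under shCtrl against 22.12 and 17.89 under shTBX3. The replicate 1 libraries of both groups were near 22 and the replicate 2 libraries near 17 to 18, and the groups overlapped. The difference between the libraries of a group (log2 0.35 in shCtrl and 0.29 in shTBX3) was larger than the fitted difference between the groups (0.04 ± 0.18, 95% interval −0.40 to 0.48).

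Glutathione synthesis begins with glutamate-cysteine ligase, whose catalytic subunit is encoded by GCLC and whose modifier subunit, which raises the activity of the enzyme, by GCLM. GCLC (chromosome 6, 53362139 to 53481768, minus strand) was at 18.37 and 19.64 under shCtrl against 16.31 and 17.66 under shTBX3. The highest shTBX3 value was under the lowest shCtrl value. It was the only gene of the 8 tested whose groups did not overlap, where 34.6% of all genes tested did not. Means were 19.0 ± 0.898 and 17.0 ± 0.955 (SD, n = 2 each), with a log2 fold change of −0.15 ± 0.13 (SE), a 95% interval of −0.47 to 0.16 and an adjusted p of 0.927 in limma. GCLM (chromosome 1, 94350755 to 94375012, minus strand) was at 16.68 and 10.94 under shCtrl against 13.34 and 12.45 under shTBX3. Both shTBX3 values of GCLM fell between the shCtrl values, and the log2 fold change was −0.07 ± 0.21 (95% interval −0.57 to 0.44). The ratio of GCLM to GCLC was 0.908 and 0.557 for shCtrl, against 0.818 and 0.705 for shTBX3. The modifier transcript was therefore below the catalytic one in every library, by a margin that differed more between the shCtrl libraries than between the groups.

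TXNRD1 and SRXN1 act on protein thiols. TXNRD1 encodes cytosolic thioredoxin reductase, a selenoprotein that uses NADPH to reduce thioredoxin, and lies on chromosome 12 (104609557 to 104744085, plus strand). It was at 78.54 and 72.18 under shCtrl against 85.10 and 55.51 under shTBX3. The shTBX3 libraries held both the highest and the lowest of the 4 values, a 1.53-fold span, with means of 75.4 ± 4.5 and 70.3 ± 20.9 (SD, n = 2 each). The log2 fold change was −0.13 ± 0.21 with a 95% interval of −0.64 to 0.38, and it became 0.17 without shTBX3 replicate 2.

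SRXN1 encodes sulfiredoxin, which restores peroxiredoxins that were inactivated by over-oxidation, and lies on chromosome 20 (627259 to 633844, minus strand). It was at 29.58 and 21.89 under shCtrl against 32.95 and 27.19 under shTBX3. At each replicate number the shTBX3 library was the higher, but the groups overlapped, since shCtrl replicate 1 exceeded shTBX3 replicate 2. SRXN1 had the largest positive log2 fold change of the 8 genes, 0.23 ± 0.19 (SE), with a 95% interval of −0.23 to 0.68 and an adjusted p of 0.925 in limma. It ran from 0.02 without shCtrl replicate 2 to 0.43 without shCtrl replicate 1.

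**Figure D2:**
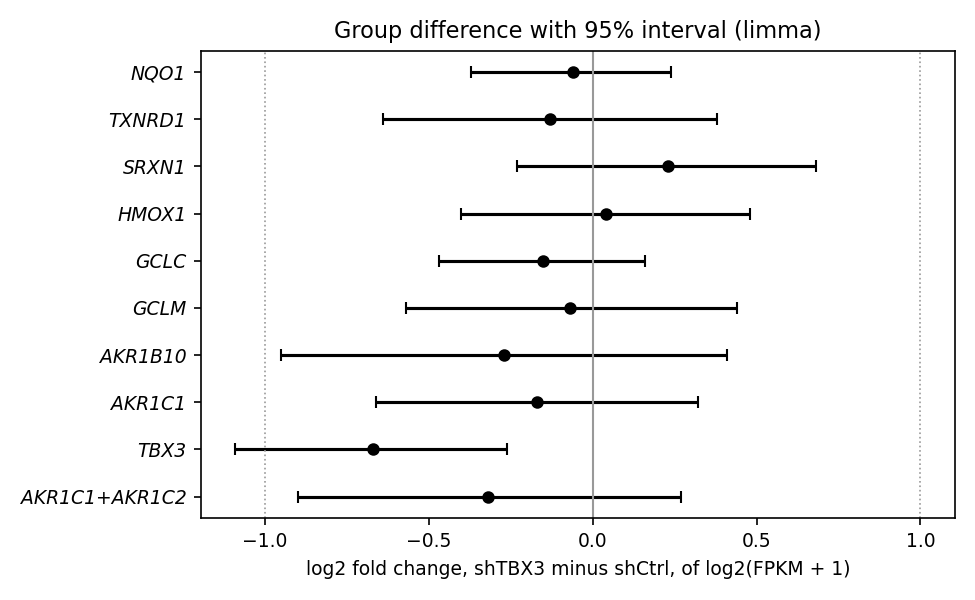
Fitted log2 fold change (shTBX3 minus shCtrl, of log2(FPKM + 1); x axis) with its 95% interval for the 8 NRF2 targets tested, for TBX3, and for AKR1C1 and AKR1C2 summed; dotted lines mark −1 and 1. The intervals of the 8 targets all include 0 and stay inside the dotted lines, while that of TBX3 runs from −1.09 to −0.26. Intervals are not adjusted for the number of genes, and the limma adjusted p of TBX3 was 0.428.

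The aldo-keto reductases AKR1C1, AKR1C2 and AKR1B10 reduce aldehydes and ketones with NADPH. AKR1C1 and AKR1C2 also act on steroids and AKR1B10 on retinal. AKR1C1 (chromosome 10, 5005445 to 5025475, plus strand) and AKR1C2 (5029967 to 5060223, minus strand) are neighbours with nearly the same coding sequence. Of 969 coding bases, 19 differed, the longest run without a difference was 186 bases, and 51.6% of the 50-base words of AKR1C1 also occur in AKR1C2. The 90 coding bases below (coding positions 85 to 174, in coding exon 2 of each gene) are shown because they hold 10 of the 19 differences, which are in capitals; a fragment outside such places can come from either gene. They lie at chr10:5008106-5008195 (plus strand) in AKR1C1 and chr10:5043784-5043873 (minus strand) in AKR1C2, GRCh37.
AKR1C1: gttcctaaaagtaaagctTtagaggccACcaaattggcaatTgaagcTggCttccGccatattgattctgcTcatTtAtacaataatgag
AKR1C2: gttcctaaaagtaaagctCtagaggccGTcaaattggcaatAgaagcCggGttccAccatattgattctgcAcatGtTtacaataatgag
Their promoter windows shared an unbroken run of 245 bases, and the rest of these windows was not compared.

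AKR1C1 was at 2.62 and 1.81 under shCtrl against 1.84 and 1.82 under shTBX3. The library shCtrl replicate 1 stood above the other 3, which were nearly equal, and the log2 fold change was −0.17 ± 0.20 (95% interval −0.66 to 0.32). AKR1C2 was at 1.46 and 0.55 under shCtrl against 0.27 and 0.72 under shTBX3. The groups of AKR1C2 overlapped, and these values stood for 12.3, 4.82, 2.26 and 6.09 fragments per kilobase, too few to compare at this depth. Because the split between the 2 entries is the quantifier's estimate, they were also added up. The sum was 4.08 and 2.36 under shCtrl against 2.11 and 2.54 under shTBX3, again with shCtrl replicate 1 apart from the rest. The log2 fold change of the sum was −0.32 ± 0.24 (SE), with a 95% interval of −0.90 to 0.27 and an adjusted p of 0.921 in limma, and it was −0.02 without shCtrl replicate 1.

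AKR1B10 (chromosome 7, 134212319 to 134226164, plus strand) was at 4.19 and 2.16 under shCtrl against 2.81 and 1.97 under shTBX3. The groups overlapped, and shCtrl replicate 1 was again the highest library. AKR1B10 had the most negative log2 fold change of the 8 genes, −0.27 ± 0.28 (SE), with a 95% interval of −0.95 to 0.41 and an adjusted p of 0.941 in limma. It was 0.09 without shCtrl replicate 1. Between 16.7 and 35.2 fragments per kilobase stood behind its values.

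Most of the targets shared an order between libraries of the same group. In 6 of the 8 genes (HMOX1, GCLM, TXNRD1, SRXN1, AKR1C1 and AKR1B10) both replicate 1 libraries lay above both replicate 2 libraries, an order held by 23.2% of all genes tested. The opposite order was held by none of the 8, against 22.2% of all genes tested. The excess of replicate 1 for AKR1B10 was 1.94-fold in shCtrl and 1.43-fold in shTBX3, and for SRXN1 it was 1.35-fold and 1.21-fold. For TXNRD1 it was 1.09-fold and 1.53-fold and for GCLM 1.52-fold and 1.07-fold, so the sizes were not the same in both groups. In AKR1C1 the shTBX3 libraries were 1.84 and 1.82, so in that group its order rests on nearly equal values. In the wider lists described next, 17 of 118 genes had the order replicate 1 above replicate 2 and 35 had the opposite. The labels do not say what a replicate number stands for, the 8 genes are not independent samples, and no test was attached to these counts.

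**Figure D3:**
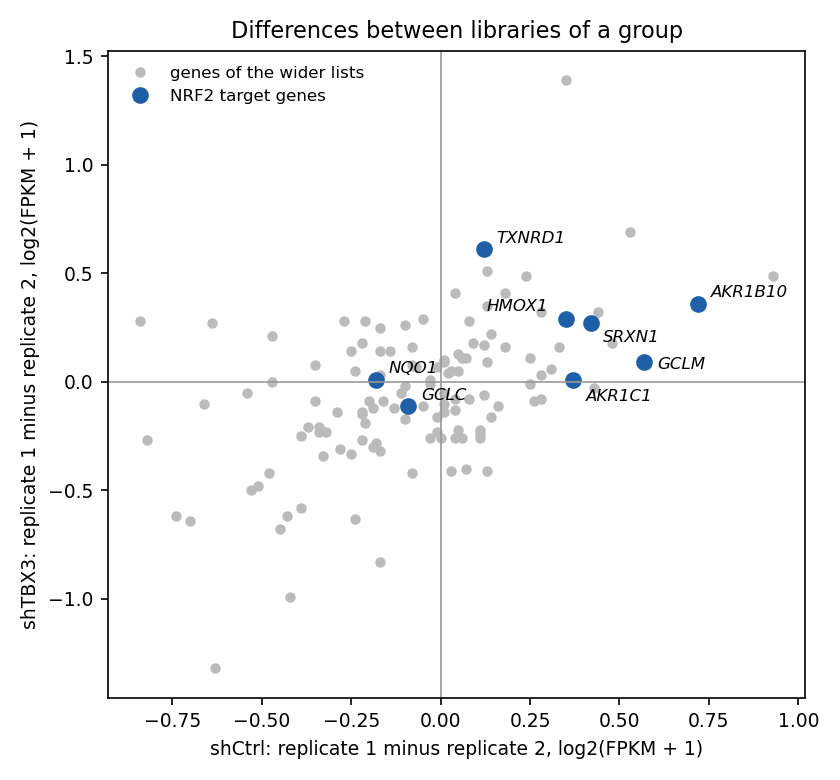
Difference between the replicate 1 and replicate 2 libraries on the log2(FPKM + 1) scale, in shCtrl (x axis) and in shTBX3 (y axis); blue, the 8 NRF2 targets tested; grey, 118 genes of the wider lists. All of the targets but NQO1 and GCLC lie right of 0 on the x axis and at or above 0.01 on the y axis.

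No regulator of the pathway was called. NFE2L2 was at 33.39 and 33.52 under shCtrl against 32.51 and 36.33 under shTBX3, and KEAP1 at 55.06 and 52.47 against 52.66 and 48.78, with overlapping groups in both. CUL3, the scaffold of the ligase, was at 14.52 and 13.22 against 17.93 and 13.88. BACH1 was at 3.93 and 4.49 against 4.31 and 4.66. SQSTM1, the autophagy receptor that binds KEAP1 and is itself a target of NRF2, was at 232.35 and 261.95 against 257.38 and 251.76. Among the small MAF partners, MAFG was at 13.22 and 12.71 under shCtrl against 9.80 and 11.55 under shTBX3, MAFF at 8.46 and 11.03 against 10.48 and 11.18, and MAFK at 15.58 and 12.94 against 13.46 and 13.52. Of the 15 regulators, all of them tested, none had an unadjusted p under 0.05 in limma (6.67% of all genes did), and the smallest p belonged to MAFG (log2 fold change −0.26 ± 0.14, limma adjusted p = 0.852) and RBX1, the RING subunit of the ligase (0.21 ± 0.14, adjusted p = 0.909). NRF2 is controlled mainly through its protein, which these transcript levels do not measure.

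Other genes of the pathway were taken by role from 11 lists of 136 genes, without the 9 targets, of which 131 were in the table and 118 were tested. None of the 118 passed limma's adjusted p of 0.05, and 10 (8.47%) had an unadjusted p under 0.05, near the 6.67% of all genes tested. Positive log2 fold changes numbered 52 and negative ones 66, with a median of −0.03. Without shCtrl replicate 1, 1 of them was called, the thioredoxin inhibitor TXNIP. The groups did not overlap in 42 of the 118 (35.6%), near the 34.6% of all genes.

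No glutathione gene was called. Over all genes tested, 6536 log2 fold changes were positive and 7388 negative. In the list of glutathione synthesis and cystine uptake, 1 of 9 members tested was positive (2 of 9 after quantile normalization or median-ratio scaling) and the median log2 fold change was −0.23. SLC7A11, which imports cystine and is a common NRF2 target, was at 2.91 and 4.27 under shCtrl against 1.79 and 3.28 under shTBX3. GSS, the synthetase of the final step, was at 47.77 and 55.66 against 41.65 and 45.89 (−0.23 ± 0.14, limma adjusted p = 0.870), and OPLAH, which recycles 5-oxoproline to glutamate, at 2.71 and 3.70 against 1.58 and 2.02 (−0.58 ± 0.20, adjusted p = 0.650). GSR, which regenerates reduced glutathione, was at 65.08 and 70.51 against 66.42 and 68.63. Of the 17 peroxidases and transferases tested, 5 were positive, and the smallest p belonged to MGST1, a microsomal transferase at 38.69 and 35.84 against 23.91 and 28.90 (−0.49 ± 0.14, limma adjusted p = 0.538). GSTM4 was at 63.98 and 63.57 against 82.94 and 77.24 (0.32 ± 0.12, adjusted p = 0.676), and its reads may be shared with the related GSTM genes. GPX2, an epithelial glutathione peroxidase, was at 1.87 and 2.92 against 1.94 and 3.71.

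The thioredoxin and peroxiredoxin system held the largest differences of the wider lists. TXNIP, which binds and inhibits thioredoxin, was at 55.36 and 98.76 under shCtrl against 28.55 and 34.52 under shTBX3, with means of 77.1 ± 30.7 and 31.5 ± 4.22 (SD, n = 2 each), a 2.44-fold difference. The groups did not overlap, with a log2 fold change of −1.21 ± 0.27 (SE) and a limma adjusted p of 0.337, which was 0.0144 without shCtrl replicate 1 and between 0.220 and 0.618 without each of the other libraries. GLRX2, a glutaredoxin, was at 22.00 and 11.03 against 8.63 and 5.85 (−1.03 ± 0.33, limma adjusted p = 0.581). TXN, thioredoxin itself, was at 348.83 and 293.53 under shCtrl against 418.18 and 386.43 under shTBX3 (0.33 ± 0.13, adjusted p = 0.749), and PRDX1, an abundant peroxiredoxin and NRF2 target, at 475.65 and 418.60 against 481.67 and 432.31.

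Heme and iron genes included the 2 most abundant transcripts of the lists. FTH1, ferritin heavy chain, lay between 4148.87 and 4376.53 in all 4 libraries. FTL, ferritin light chain, was at 1232.74 and 1461.56 under shCtrl against 1556.98 and 1960.76 under shTBX3, with groups that did not overlap (0.38 ± 0.16, limma adjusted p = 0.761). SLC48A1, a heme transporter, was at 12.99 and 12.28 against 13.75 and 14.64 (0.16 ± 0.13, adjusted p = 0.925). Of the 9 tested in this list, 6 were positive (5 after quantile normalization).

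The NADPH-producing enzymes were evenly split, with 5 of 10 positive. PGD, a dehydrogenase of the pentose phosphate pathway, was at 193.34 and 189.49 under shCtrl against 191.07 and 184.80 under shTBX3, and ME1, malic enzyme, at 59.01 and 54.04 against 57.23 and 59.51. The transferring enzymes of the same pathway stood on opposite sides: TALDO1 at 225.35 and 235.93 against 200.46 and 191.18 (−0.24 ± 0.11, limma adjusted p = 0.816), and TKT at 285.20 and 295.63 against 315.34 and 340.28 (0.17 ± 0.12, adjusted p = 0.900).

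Among other reductases, AKR1C3, a relative of AKR1C1 with 91.4% of its coding bases, was at 4.79 and 8.66 under shCtrl against 4.38 and 7.26 under shTBX3, and so above AKR1C1 in every library. Its replicate 2 libraries were the higher ones, opposite to AKR1C1. AKR1B1, aldose reductase, was at 2.31 and 2.17 against 2.22 and 2.86. CBR3, a carbonyl reductase, was at 2.59 and 3.58 against 2.31 and 2.13 (−0.33 ± 0.19, limma adjusted p = 0.866), and CBR1 at 30.81 and 31.52 against 27.86 and 28.12 (−0.15 ± 0.12, adjusted p = 0.923). Of the 10 reductases tested, 4 were positive.

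In the remaining lists, UGDH, which makes UDP-glucuronate for conjugation, was at 40.89 and 40.56 under shCtrl against 30.34 and 28.36 under shTBX3 (−0.46 ± 0.12, limma adjusted p = 0.458). ALDH3A2, a fatty aldehyde dehydrogenase, was at 26.41 and 29.88 against 36.12 and 32.63 (0.28 ± 0.14, adjusted p = 0.816). Of the efflux pumps, ABCG2 was at 2.84 and 3.47 against 1.60 and 1.30 (−0.76 ± 0.19, limma adjusted p = 0.394), ABCC3 at 11.29 and 16.18 against 8.81 and 12.15 (−0.36 ± 0.22, adjusted p = 0.881), and ABCC2 at most 0.38 in any library. OSGIN1, an oxidative stress-induced growth inhibitor, was at 5.65 and 5.03 against 6.43 and 5.37. PPARG, a nuclear receptor, was at 10.27 and 12.64 against 6.09 and 7.82 (−0.65 ± 0.18, limma adjusted p = 0.477), and FOSL1, an AP-1 subunit, at 45.51 and 36.49 against 57.72 and 55.30 (0.46 ± 0.15, adjusted p = 0.581). SOD2, the mitochondrial superoxide dismutase and also a known NF-kB target, was at 84.14 and 77.43 against 61.19 and 54.43 (−0.48 ± 0.13, limma adjusted p = 0.470), and CAT, catalase, at 28.12 and 39.21 against 26.82 and 26.91 (−0.30 ± 0.18, adjusted p = 0.880). The shTBX3 libraries were the lower pair, without overlap, in UGDH, ABCG2, PPARG, SOD2 and CAT, and the higher pair in ALDH3A2 and FOSL1. These genes were named for the smallest p-values of their lists, and 34.6% of all genes tested did not overlap, so this order says little.

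None of these values rests on more than 2 libraries a group, and leaving out 1 library moved several by over 1.5 times. GLRX2 ran from −0.57 without shCtrl replicate 1 to −1.50 without shCtrl replicate 2, and TXNIP from −0.80 to −1.62 without shCtrl replicate 2 and 1. Without shCtrl replicate 2 the log2 fold change was −0.06 for CAT, −0.11 for ABCC3, −0.16 for CBR3, −0.13 for GSS, 0.20 for TXN and 0.06 for RBX1. Without shCtrl replicate 1 it was −0.53 for CAT, −0.60 for ABCC3, −0.51 for CBR3 and 0.35 for RBX1. Without shTBX3 replicate 1 it was −0.15 for MAFG and −0.14 for ABCC3. Without shTBX3 replicate 2 it was 0.21 for FTL and −0.57 for ABCC3.

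**Figure D4:**
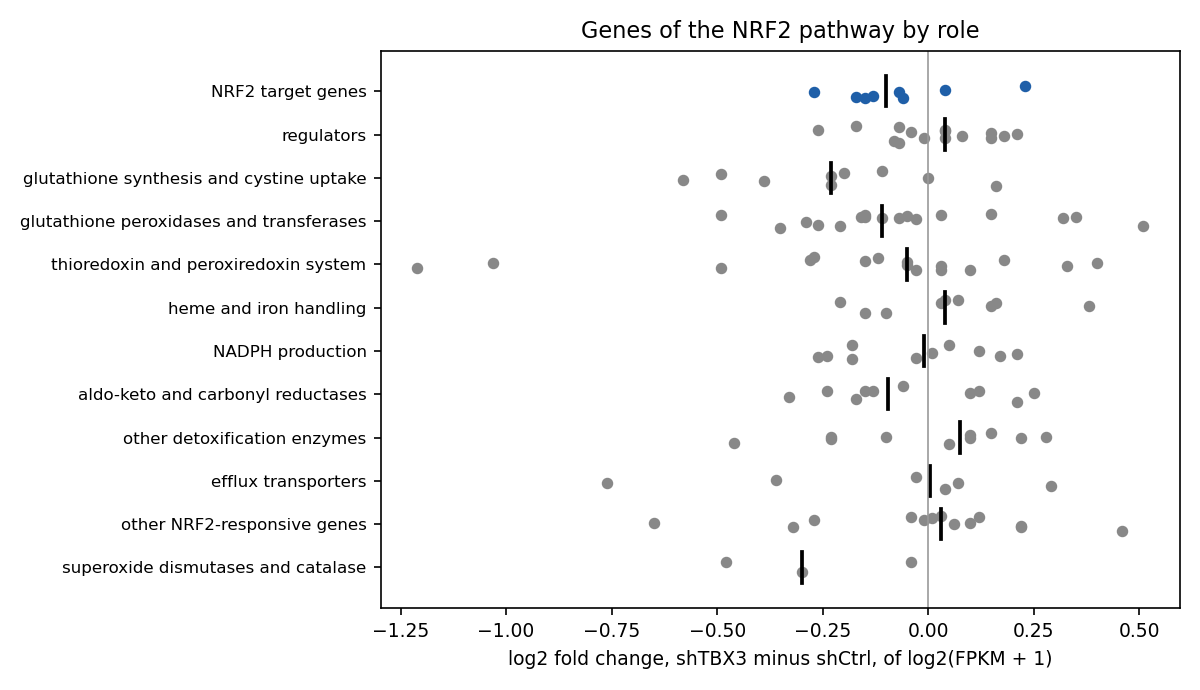
Fitted log2 fold change (shTBX3 minus shCtrl, of log2(FPKM + 1); x axis) of each gene tested, by role; blue, the 8 NRF2 targets; grey, genes of the 11 wider lists; black bars, list medians. The targets lie between −0.27 and 0.23, and TXNIP at −1.21 and GLRX2 at −1.03 are the lowest points.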

How the data were processed

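RNA of 4 libraries was sequenced on the BGISEQ-500 (shCtrl and shTBX3, 2 each). The authors deposited FPKM per gene. Per the submitters' processing notes, HISAT, Bowtie2 and RSEM were used with hg19, without versions or roles; the sources used here give no filters, strandedness or annotation release. FPKM carry no counts, so log2(FPKM + 1) was fitted with limma 3.58.1 in R 4.3.3 (eBayes with a trend, two-sided, Benjamini-Hochberg adjustment over 13924 genes reaching FPKM 1 in 2 or more libraries, threshold 0.05). The script was first run on simulated data, with a check that fold changes were unbiased and larger ones called more often. The share of false calls was not part of that check. Residual degrees of freedom were 2, and prior ones 4.11. The 9 genes were taken by symbol, and they, the lists and the tests were chosen with earlier results of these data known. The text names the 9 targets, TBX3, fixed regulators and pathway genes, the 2 tested genes of each list with the smallest p, and the 2 most abundant; 1 fixed pathway gene is not reported here. Depth was estimated from microRNA genes of known hairpin length with up to 6 fragments, of which 85.7% to 95.7% of values were whole within 0.05. Gene positions and coding sequences are from GENCODE 44 on GRCh37. Python 3.11.15, numpy 2.4.6, pandas 2.3.3 and matplotlib 3.10.9 were used. The alternatives were pseudocounts, filters, scalings, limma options, a replicate block, coding genes alone and each library left out.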

Additional observations from a re-analysis of the deposited data

How the results depend on the processing

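No NRF2 target passed the limma threshold under any alternative run, the lowest adjusted p being 0.383. Filters, limma options, the replicate block and coding genes alone cannot change the log2 fold change of a gene. Of 110 values of the targets under alternatives, 103 kept their direction, many of them fixed in this way. The other 7 came from leaving out 1 library, where the log2 fold change ranged from −0.15 to 0.02 for NQO1, −0.14 to 0.22 for HMOX1, −0.35 to 0.22 for GCLM, −0.43 to 0.17 for TXNRD1, −0.36 to 0.01 for AKR1C1 and −0.63 to 0.09 for AKR1B10. Leaving out libraries also moved the number of targets with a positive value between 1 and 5, the median of the targets between −0.16 and 0.05, the wider genes called between 0 and 1, and all genes called between 12 and 55 (25 with all libraries). A pseudocount of 0.1 gave 7 genes called by limma, and testing every gene above 0 gave 0 (1249 at an unadjusted p under 0.05). With no filter AKR1C2 had a log2 fold change of −0.40 ± 0.29 (adjusted p = 0.876). With the replicate number as a block, limma called 132 genes, among them 2 of the wider lists, TXNIP (adjusted p = 0.0370) and GLRX2 (0.0480). The block rests on 2 pairs, and the groups' replicate deviations had a correlation of 0.26 over 13924 genes. The labels do not say whether samples with the same replicate number share anything else. The cause of these shifts was not tested. Depth limits AKR1C2 and the split between AKR1C1 and AKR1C2.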

Other observations

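A pair of genes of the wider lists, picked after their values were seen, stood in the opposite order from most NRF2 targets. CHAC1, which degrades glutathione, was at 9.73 in replicate 1 and 15.59 in replicate 2 of shCtrl, and at 5.02 and 14.08 in shTBX3. SESN2, a stress-induced sestrin, was at 7.54 and 10.45 under shCtrl, against 4.83 and 10.61 under shTBX3. In both genes, as in SLC7A11, both replicate 2 libraries exceeded both replicate 1 libraries, an order held by 22.2% of all genes tested. For SLC3A2, the partner of SLC7A11 in cystine uptake, replicates 1 and 2 were 173.30 and 166.04 under shCtrl and 162.94 and 150.55 under shTBX3. Replicate 1 was the higher library within each group, but shTBX3 replicate 1 lay below shCtrl replicate 2, so SLC3A2 had neither order. The order was not tested, and the labels name no difference between the replicates.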
